A study of Rattus norvegicus with 8 samples.

Results

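The 9 genes described here include the signalling chains and a coreceptor of the B cell receptor (Cd79a, Cd79b, Cr2). Ms4a1 makes a surface protein of B cells. The others make the kinase and adaptor that pass the receptor's signal on (Btk, Blnk), and proteins of antibody-secreting cells and their transcription (Pou2af1, Jchain, Mzb1). All 9 were taken by name from a table of 37209 gene rows. A row was found for all 9, and 8 had counts. Jchain stands in the table under its older symbol Igj. The row named Cd79a was listed at 0 in every library, but the row LOC100913063 carries the RefSeq gene ID of the current Cd79a and had counts, so its values are given beside the members and it is not counted as one.

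B cells detect antigen with a membrane antibody whose short tails cannot signal, so the Cd79a and Cd79b chains carry the tyrosine motifs that recruit Syk. Syk phosphorylates the adaptor Blnk, which brings Btk to phospholipase C gamma. Plasma cells, the end stage of the lineage, lose most of these surface proteins and secrete antibody, which the J chain joins into polymers of the IgA and IgM classes. A vein wall normally holds few cells of either kind, and B cells and plasma cells can gather in the outer coat of injured or inflamed vessels.

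Total RNA was taken from 4 vein grafts and from 4 ungrafted jugular veins, the controls, in Sprague Dawley (SD) rats, an outbred strain, taken 1 week after surgery. For the grafts the left common carotid artery was divided, its ends were everted over cuffs, and a vein was set between them to carry arterial blood. The controls were the animals' own jugular veins of the opposite side, which had not been grafted. Both groups thus share the strain, the operation and the time. Age and sex are not given in the labels. The labels speak of pairs, but grafts 1, 2 and 4 carry the numbers 9, 10 and 5 in their source names, which no control has, so the groups were compared unpaired. Nothing else in the labels gives batches, and p-values measure the spread between these libraries.

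Libraries held from 10533451 to 16061189 counts in the grafts and from 5981520 to 14267490 in the controls, with control 4 the shallowest. At these depths 3 counts equal 0.182 to 0.240 CPM (counts normalised to the TMM-scaled library size) in the grafts and 0.225 to 0.560 CPM in the controls. The extraction text of the labels names prefrontal cortex. Summed over 12 brain markers, the libraries held 2.70 to 8.56 CPM in the grafts and 5.88 to 9.15 CPM in the controls, with Gad2 and Neurod6 at 0 throughout. Over 10 markers of vein smooth muscle and endothelium they held 2661 to 4208 CPM in the grafts and 13703 to 21979 CPM in the controls. Summed adipocyte markers lay between 872 and 1334 CPM in the grafts and at 1899, 2171, 4960 and 10151 CPM in controls 1 to 4.

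The 9 genes did not move as one. Blnk, Btk and Jchain rose in the grafts, Cr2 fell, and Ms4a1 and Pou2af1 did not pass the test. These 6 passed the filter on low counts. Cd79a, Cd79b and Mzb1 did not, and with all 8 libraries the last 2 were tested only in a fit with no filter, where Mzb1 rose. The test was edgeR's quasi-likelihood test with Benjamini-Hochberg adjustment over 15464 genes, called at an adjusted p under 0.05. In that fit 21.0% of all genes rose and 21.3% fell, the shares to set beside the counts of each gene list below. For Blnk, Btk and Jchain among the tested members every graft lay above every control, as for 20.8% of all tested genes; no tested member lay lower in every graft, as 19.8% of all tested genes did. With no filter on low counts 14.1% of 24983 genes rose and 12.7% fell, and with the replicate number as a block 19.7% rose and 18.5% fell. In bulk tissue, fewer cells of a type and less RNA per cell cannot be told apart.

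**Figure D1:**
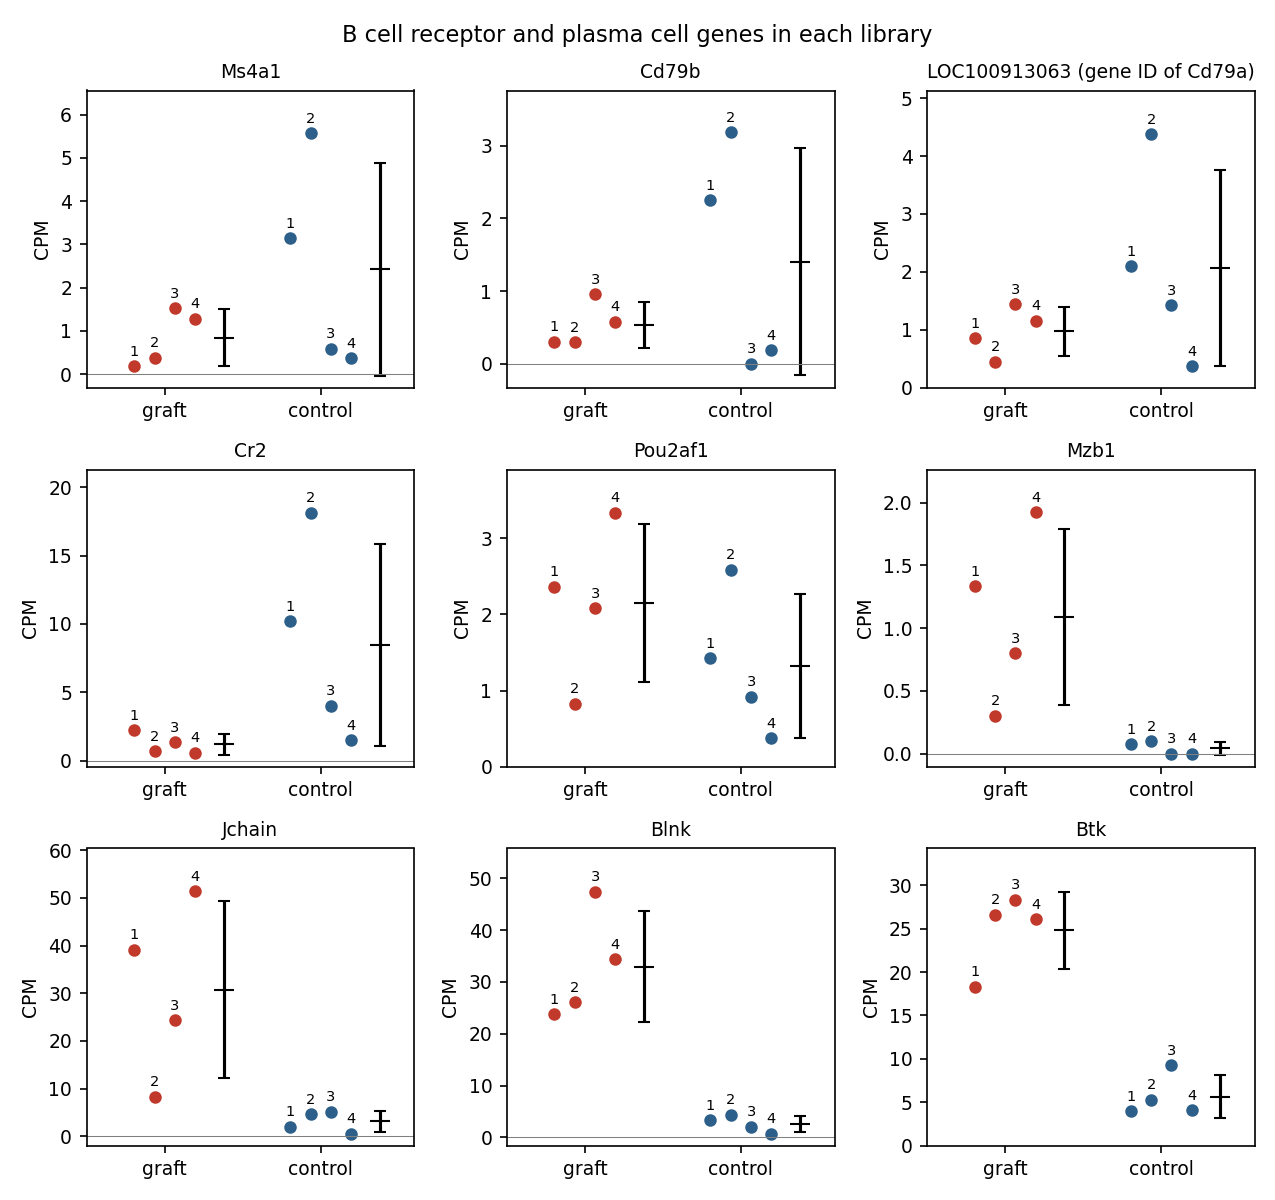
CPM of 8 members and of LOC100913063 in each library, numbered by replicate, with graft veins at the left and control veins at the right of each panel. Bars show the mean and SD over 4 libraries, and each panel has its own linear axis. Ms4a1, Cd79b and Cr2 stood highest in controls 1 and 2, while Blnk, Btk, Jchain and Mzb1 were higher in every graft than in any control.

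The B cell receptor chains were close to the limit of detection. Cd79b, the beta chain that every B cell needs for its receptor, had 5, 4, 12 and 9 counts in grafts 1 to 4, against 30, 32, 0 and 1 counts in controls 1 to 4. It averaged 0.535 ± 0.311 CPM in the grafts and 1.41 ± 1.56 CPM in the controls (SD, n = 4 each). The groups overlapped, because controls 3 and 4 lay below every graft and controls 1 and 2 above. LOC100913063, the row with the gene ID of the alpha chain, had 14, 6, 18 and 18 counts in the grafts, against 28, 44, 17 and 2 counts in the controls. The groups overlapped here too, with control 2 highest and control 4 lowest in CPM. Its log2 fold change, graft minus control, was -1.12 ± 0.61 (SE; edgeR adjusted p = 0.166). With no filter on low counts, Cd79b stood at -1.42 ± 0.96 (SE; edgeR adjusted p = 0.307).

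Ms4a1 encodes CD20, a surface protein of B cells from the pre-B stage until they become plasma cells. It stood at 0.182, 0.376, 1.52 and 1.28 CPM in grafts 1 to 4, against 3.15, 5.58, 0.586 and 0.373 CPM in controls 1 to 4. Grafts 3 and 4 thus lay between the 2 lower and the 2 higher controls. The log2 fold change was -1.57 (SE 0.86) at an edgeR adjusted p of 0.170. Pax5, the transcription factor that fixes B cell identity, showed the same order of controls in CPM. It had 6, 5, 13 and 6 counts in the grafts, against 20, 19, 3 and 1 counts in the controls, and did not pass the low-count filter.

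Cr2 encodes complement receptor 2 (CD21), which lowers the threshold of the B cell receptor for antigen coated with complement and is also carried by follicular dendritic cells. It stood at 2.25, 0.676, 1.36 and 0.578 CPM in grafts 1 to 4, against 10.2, 18.1, 4.02 and 1.49 CPM in controls 1 to 4. The highest graft lay above the lowest control, and all other controls lay above all grafts. Cr2 fell by 2.80 in log2 units (SE 0.72) at an edgeR adjusted p of 0.0119. The promoter window of Cr2, from 250 bases before to 50 bases after the gene's start in RefSeq's GRCr8 table, is shown because Cr2 was the one member that fell. It lies at chr13:109244457-109244756 on the minus strand.
Cr2: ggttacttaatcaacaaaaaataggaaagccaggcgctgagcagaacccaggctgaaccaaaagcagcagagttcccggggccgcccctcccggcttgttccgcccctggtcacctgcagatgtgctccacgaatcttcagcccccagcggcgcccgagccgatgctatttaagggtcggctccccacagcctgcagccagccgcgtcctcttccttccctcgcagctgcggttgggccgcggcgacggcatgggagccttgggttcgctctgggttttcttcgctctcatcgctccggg
None of the 3 motifs searched (given below) is in these letters.

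Controls 3 and 4, which had the highest adipocyte sums, also had the lowest CPM of Ms4a1, Cr2 and Cd79b among the controls. With these libraries left out, Cr2 fell by 3.52 in log2 units (SE 0.51) at an edgeR adjusted p of 0.00232, Ms4a1 by 2.37 ± 0.72 (edgeR adjusted p = 0.0421), Cd79b by 2.34 ± 0.55 (edgeR adjusted p = 0.0166) and LOC100913063 by 1.72 ± 0.53 (edgeR adjusted p = 0.0444), all on the log2 scale. That fit leaves the 2 controls with the highest values of these genes, and 15.4% of its 16445 genes rose and 13.7% fell. The 15 T cell markers summed to 24.6, 35.9, 13.6 and 11.4 CPM in controls 1 to 4, so controls 1 and 2 were also the higher ones for T cell transcripts. Markers of follicular dendritic cells and lymph node stroma, 12 genes with Cr2 among them, summed to 578 to 1183 CPM in the grafts and to 818, 1005, 687 and 830 CPM in controls 1 to 4. Of those tested, 3 rose, 2 fell and 4 did not pass, while Fdcsp, a secreted protein of follicular dendritic cells, was at 0 throughout. Of 8 lymphatic endothelial markers 2 rose, 2 fell and 4 did not pass. With all 8 libraries 21.0% of all genes rose and 21.3% fell, so these markers lay near those shares. They summed to 249 to 406 CPM in the grafts and to 363 to 643 CPM in the controls. The part of these other cells in the Cr2 result was not tested.

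Blnk, the adaptor that links Syk to Btk and phospholipase C gamma, is made by macrophages as well as B cells. It stood at 23.8, 26.1, 47.4 and 34.4 CPM in grafts 1 to 4, against 3.30, 4.38, 2.09 and 0.747 CPM in controls 1 to 4. Every graft lay above every control, and graft 3 was the highest. Blnk rose, with a log2 fold change of 3.58 (SE 0.42) and an edgeR adjusted p of 0.000174. Btk, the kinase whose loss stops B cell development in humans, is also used by macrophages and mast cells. It stood at 18.3, 26.6, 28.3 and 26.1 CPM in the grafts, against 3.97, 5.28, 9.29 and 4.11 CPM in the controls. The groups did not overlap, and control 3 was the highest control. Btk rose, with a log2 fold change of 2.12 (SE 0.29) and an edgeR adjusted p of 0.000441. Among the controls, Blnk was highest in controls 1 and 2, the controls with the most Ms4a1, and Btk in control 3.

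The promoters of Blnk and Btk are shown because these genes rose together. Both are RefSeq windows of GRCr8, at chr1:249770484-249770783 for Blnk and chrX:102055094-102055393 for Btk, each on the minus strand. Capitals mark the octamer in Blnk and the PU.1 core in Btk, each as the reverse complement of the motif as written below.
Blnk: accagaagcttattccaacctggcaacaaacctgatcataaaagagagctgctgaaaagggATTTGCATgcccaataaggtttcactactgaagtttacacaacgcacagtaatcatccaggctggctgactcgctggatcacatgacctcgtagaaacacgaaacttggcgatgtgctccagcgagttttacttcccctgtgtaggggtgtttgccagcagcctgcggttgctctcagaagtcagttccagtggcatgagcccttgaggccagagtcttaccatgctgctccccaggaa
Btk: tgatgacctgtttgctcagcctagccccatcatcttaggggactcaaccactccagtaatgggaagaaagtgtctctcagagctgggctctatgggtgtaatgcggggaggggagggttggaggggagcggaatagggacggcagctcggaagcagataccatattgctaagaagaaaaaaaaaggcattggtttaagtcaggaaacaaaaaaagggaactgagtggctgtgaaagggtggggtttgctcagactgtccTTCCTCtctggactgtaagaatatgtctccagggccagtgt
The table held promoters for 5 of the 9 genes (Cd79a, Cr2, Blnk, Btk and Jchain). They were searched on both strands for the octamer ATGCAAAT, bound by Oct factors together with Pou2af1, for the PU.1 core GAGGAA, and for the EBF motif, TCCC and GGGA with 2 bases between them. The octamer is in 1.78% of all 33469 promoters of the table and in 1 of the 5, that of Blnk. The PU.1 core is in 27.6% of all promoters and in 2 of the 5, those of Cd79a and Btk. The EBF motif is in 0.834% of all promoters and in 0 of the 5. No match overlapped another, and a match of letters does not show that a factor binds there.

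Macrophage transcripts rose in the grafts, as Blnk and Btk did, and so did those of T cells and plasmacytoid dendritic cells, given below. Of 20 macrophage markers 18 rose and 2 did not pass, and none was at 0. The macrophage sum was 3590, 4926, 5230 and 5510 CPM in grafts 1 to 4, against 499, 779, 732 and 531 CPM in controls 1 to 4. Tyrobp, the signalling adaptor of myeloid receptors, rose, with a log2 fold change of 4.23 (SE 0.22) and an edgeR adjusted p of 1.21e-05, and Laptm5, a lysosomal protein of blood cells that is not limited to macrophages, rose with 3.33 (SE 0.21) at an edgeR adjusted p of 2e-05. The part of macrophages in the rise of Blnk and Btk was not tested. Of 24 genes that carry antigen receptor signals and are shared with myeloid cells, 19 rose and 5 did not pass; the median of their log2 fold changes was 2.20, against 0.01 over all genes tested. Vav1, an exchange factor downstream of Syk, averaged 66.5 ± 19.7 CPM in the grafts and 5.87 ± 1.87 CPM in the controls (SD, n = 4 each), which gives 3.46 in log2 units (SE 0.30) at an edgeR adjusted p of 3.95e-05. Prkcb, the protein kinase C of the B cell receptor pathway, averaged 70.2 ± 15.3 CPM in the grafts and 15.8 ± 2.51 CPM in the controls, which gives 2.15 in log2 units (SE 0.19) at an edgeR adjusted p of 4.54e-05.

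**Figure D2:**
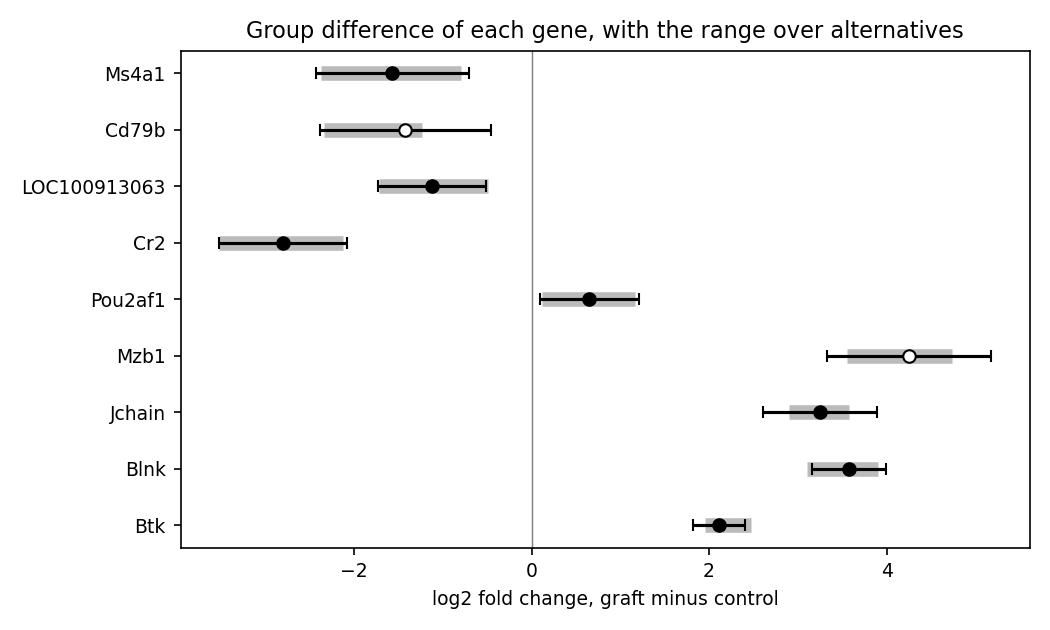
Log2 fold change, graft minus control, of 8 members and LOC100913063, with the SE of the fit as black bars and the lowest to highest value over the alternative settings as grey bars. Open circles are Cd79b and Mzb1, which with all 8 libraries were fitted only without a low-count filter (2 control counts make the fitted value of Mzb1 uncertain). Ms4a1, Cd79b, LOC100913063 and Cr2 lay below 0 in all settings in which they could be fitted, and the other 5 above 0.

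Pou2af1 encodes the coactivator OBF-1, which B cells and plasma cells use with Oct factors to drive immunoglobulin genes. It stood at 2.37, 0.826, 2.08 and 3.34 CPM in grafts 1 to 4, against 1.42, 2.59, 0.920 and 0.373 CPM in controls 1 to 4. The groups overlapped, with graft 4 the highest library and graft 2 below every control except control 4. The log2 fold change was 0.65 (SE 0.55) at an edgeR adjusted p of 0.371.

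Jchain encodes the J chain, which plasma cells add to secreted IgA and IgM. It stood at 39.1, 8.26, 24.3 and 51.4 CPM in grafts 1 to 4, against 2.02, 4.68, 5.10 and 0.560 CPM in controls 1 to 4. Every graft lay above every control, with graft 4 highest, and graft 2 was nearest to the controls. Jchain rose, with a log2 fold change of 3.25 (SE 0.64) and an edgeR adjusted p of 0.00318. Mzb1, a chaperone of the endoplasmic reticulum in marginal zone B cells and plasma cells, had 22, 4, 10 and 30 counts in the grafts, against 1, 1, 0 and 0 counts in the controls. Over the groups this is a ratio of 23.2 in favour of the grafts, with an exact 95% binomial interval of 6.19 to 196 that covers counting error only, and without control 2 it was 35.1. With no filter on low counts Mzb1 passed the threshold (edgeR adjusted p = 0.00501). Grafts 4 and 1 were the highest for both Jchain and Mzb1 and graft 2 the lowest. The promoter window of Jchain, the member of antibody-secreting cells that passed the test, lies at chr14:19822726-19823025 on the plus strand in RefSeq's GRCr8 table and holds none of the 3 motifs.
Jchain: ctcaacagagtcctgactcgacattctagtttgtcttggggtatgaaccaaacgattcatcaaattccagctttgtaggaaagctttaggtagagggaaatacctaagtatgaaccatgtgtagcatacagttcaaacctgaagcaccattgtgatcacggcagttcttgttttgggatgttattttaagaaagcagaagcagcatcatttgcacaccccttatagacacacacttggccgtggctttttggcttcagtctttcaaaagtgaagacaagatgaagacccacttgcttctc

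Immunoglobulin rows, which the choice of the 9 genes did not use, had more summed CPM in every graft than in any control. The table has 144 rows that it names as heavy chain classes or that RefSeq lists as V segments or C regions among named heavy or kappa chain segments, and 102 had a count. Of these, 92 had a higher mean CPM in the grafts and 10 in the controls, and 49 had no count in any control. The same shares over all rows of the table were not computed, so these numbers are description only. They also depend on depth, since many of the rows had only a few counts. Only 5 passed the low-count filter, and 3 of them (LOC103692723, LOC100360968 and LOC691897) had at most 2 counts over all controls, so that they passed it through the grafts; the number of these 5 that rose is therefore not given as a result on the rows as a whole. Summed over all these rows, the libraries held 296, 62.1, 194 and 358 CPM in grafts 1 to 4, against 26.8, 54.9, 17.0 and 2.24 CPM in controls 1 to 4. The order of the grafts was that of Jchain, with graft 4 highest and graft 2 just above control 2. V segments of both chains alone did not keep this order. They summed to 128, 51.0, 162 and 142 CPM in the grafts, with graft 3 highest, against 21.9, 42.8, 13.1 and 2.24 CPM in the controls. The single row LOC314492 made 55.3% and 60.6% of the whole sum in grafts 2 and 3, and 33.5% to 91.7% in the controls. Without that row the V segments summed to 84.0, 16.7, 44.6 and 87.2 CPM in grafts 1 to 4, in the order of Jchain. In controls 1 to 4 they then summed to 2.55, 11.1, 7.45 and 0.187 CPM. Kappa chain V segments alone summed to 39.7, 6.84, 21.7 and 40.6 CPM in the grafts, against 0.899, 3.19, 2.76 and 0 CPM in the controls. Between 40 and 79 of these rows had a count in each graft, against 2 to 30 in each control, a number that also depends on depth. Some V segments are close copies of others, so the split of reads between such rows is uncertain.

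Igha, the constant region of IgA, stood at 80.7, 10.3, 25.6 and 58.8 CPM in grafts 1 to 4, against 4.94, 11.9, 3.85 and 0 CPM in controls 1 to 4. Graft 2 lay below control 2, so the groups overlapped. Igha rose, with a log2 fold change of 3.03 (SE 0.84) and an edgeR adjusted p of 0.0165, and did not pass with controls 3 and 4 left out (edgeR adjusted p = 0.0652). LOC103692723, a C region at the heavy chain locus with no class named in RefSeq, had 1430, 11, 75 and 2428 counts in the grafts, against 0, 2, 0 and 0 counts in the controls. Its counts lay mostly in grafts 1 and 4, the grafts with the most Jchain. The ratio over the groups was 1389 in favour of the grafts, with an exact 95% binomial interval of 384 to 11475 for counting error only (edgeR adjusted p = 0.00375). As this row passed the low-count filter through the grafts alone, its p-value gives no further support for a rise. Without graft 4 the ratio was 731, and without control 2 the controls had no count. Ighg, a row named for IgG and picked after its values were seen, had 5, 0, 0 and 7 counts in the grafts and none in the controls, and did not pass the low-count filter.

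The 3 V segment rows that passed the filter stood highest in graft 3, unlike Jchain and unlike the sum of all V segments without LOC314492. LOC314492, which RefSeq now names Ighv and which overlaps LOC103692723 there, stood at 44.4, 34.3, 117 and 54.4 CPM in grafts 1 to 4, against 19.3, 31.8, 5.69 and 2.05 CPM in controls 1 to 4. Graft 3 was the highest, and graft 2 lay just above control 2. It rose, with a log2 fold change of 2.06 (SE 0.69) and an edgeR adjusted p of 0.0361. The call was lost without graft 3 (edgeR adjusted p = 0.101), graft 4 (0.0581), control 3 (0.0840) or control 4 (0.0502), and without both controls 3 and 4 (0.0906). LOC100360968, a kappa V segment that RefSeq names Igkvl1, had 57, 45, 184 and 41 counts in the grafts, against 1, 0, 0 and 0 counts in the controls, a ratio of 230 with an exact 95% binomial interval of 41.1 to 9126 that covers counting error only. Without graft 3 the ratio was 129, and without control 1 the controls had no count. The row passed the test (edgeR adjusted p = 0.000455), but it had passed the low-count filter through the grafts alone. LOC691897, a heavy chain V segment named after its values were seen, had 53, 44, 151 and 32 counts in the grafts, against 1, 0, 0 and 0 counts in the controls, and passed at the same edgeR adjusted p of 0.000455. LOC691897 too had passed the filter through the grafts alone, so neither p-value gives further support for a rise.

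**Figure D3:**
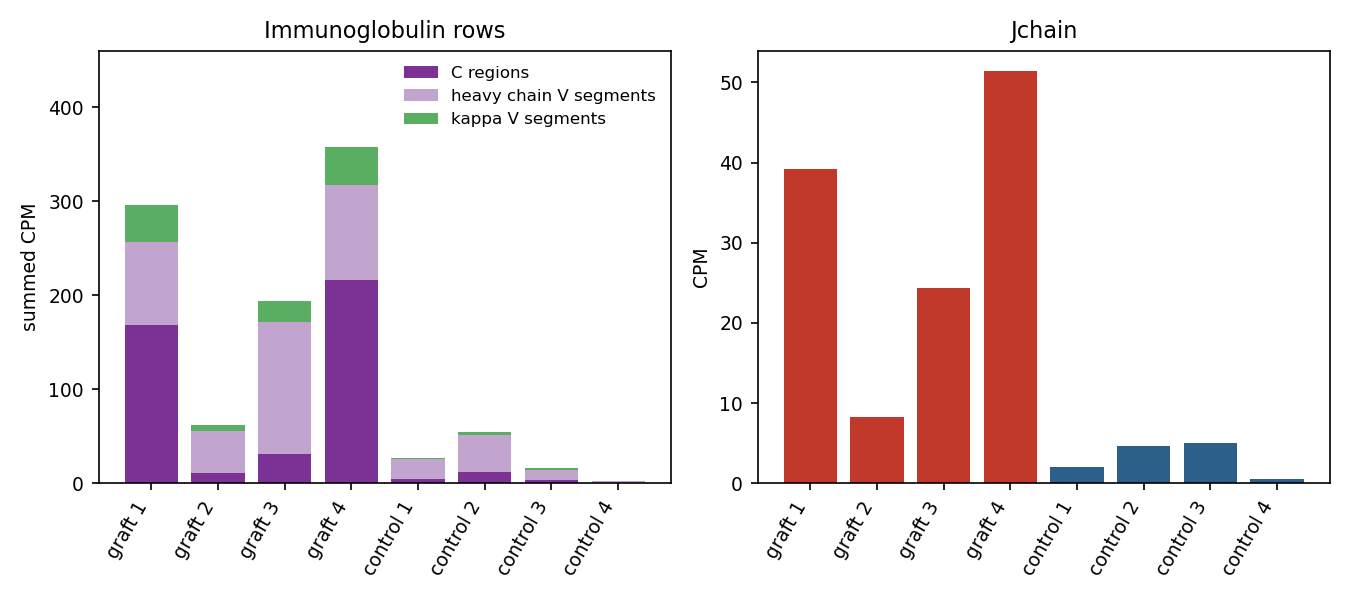
Left, summed CPM of immunoglobulin rows in each library, split into C regions, heavy chain V segments and kappa chain V segments; right, CPM of Jchain in the same libraries. Both axes are linear from 0, with graft veins left of control veins, and in both panels graft 4 is highest and graft 2 the lowest graft.

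Other genes of the plasma cell programme mostly did not pass the test. Of 17 tested in a list of 19, 5 rose, 1 fell and 11 did not pass; the median of their log2 fold changes was 0.29, against 0.01 over all genes tested. Cd38, an ectoenzyme of plasma cells and many other leukocytes, averaged 62.4 ± 12.1 CPM in the grafts and 24.9 ± 2.19 CPM in the controls (SD, n = 4 each), and rose, with a log2 fold change of 1.32 (SE 0.16) and an edgeR adjusted p of 0.000192. Tent5c, an RNA-stabilising enzyme of plasma cells that other tissues also make, fell by 2.43 in log2 units (SE 0.38) at an edgeR adjusted p of 0.000891. The other rises were those of Prdm1, Slamf7, Cd27 and Pdia4, named after their values were seen. Prdm1, the transcription factor of the plasma cell state that macrophages and T cells also use, averaged 21.3 ± 5.00 CPM in the grafts and 5.93 ± 2.15 CPM in the controls. Xbp1, which expands the secretory apparatus, averaged 119 ± 4.42 CPM in the grafts and 117 ± 7.76 CPM in the controls, and Irf4 14.3 ± 4.04 CPM in the grafts and 12.7 ± 4.52 CPM in the controls, neither past the threshold. Tnfrsf17, the survival receptor BCMA of plasma cells, had too few counts to be tested, with 0 to 0.425 CPM in the grafts and 0 CPM in the controls. Without control 3, or without controls 3 and 4, the number that rose was 3, and with library totals alone as the scaling it was 10.

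Plasmacytoid dendritic cells also make Jchain and Mzb1 transcripts. Of 12 markers of these cells 11 had a row and 10 were tested, of which 9 rose and 1, Tcf4, did not pass. Their sum was 477, 626, 790 and 655 CPM in grafts 1 to 4, against 187, 307, 224 and 189 CPM in controls 1 to 4, and most of these genes are also made by macrophages or other cells. Siglech, the most specific of them, stood at 7.16, 6.84, 23.4 and 10.2 CPM in the grafts, against 2, 2, 0 and 0 counts in the controls. Among the grafts Siglech was highest in graft 3 and Jchain in graft 4, and both were lowest in graft 2. The part of these cells in the Jchain and Mzb1 results was not tested.

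Genes of B cell identity and its coreceptors went both ways. Of 14 tested in a list of 21, 7 rose, 4 fell and 3 did not pass; the median of their log2 fold changes was 1.18. Cd83, a marker of activated B cells and of dendritic cells, averaged 33.9 ± 7.71 CPM in the grafts and 6.88 ± 1.57 CPM in the controls (SD, n = 4 each), which gives 2.28 in log2 units (SE 0.23) at an edgeR adjusted p of 9.31e-05. Ralgps2, an exchange factor for Ral proteins, averaged 3.40 ± 0.66 CPM in the grafts and 9.41 ± 0.76 CPM in the controls, and fell by 1.46 in log2 units (SE 0.21) at an edgeR adjusted p of 0.000566. The other rises were Cd22, Cd72, Cd37, Fcrla, Cd180 and Spib, and the other falls Cxcr5, Fcmr and Ebf1, all named after their values were seen. Cd180 and Cd37 are also made by myeloid cells, Spib by plasmacytoid dendritic cells and Ebf1 by adipocytes, vascular mural cells and stroma. Fcmr, the receptor for IgM, stood at 2.85, 2.03, 2.88 and 6.48 CPM in the grafts, against 14.3, 33.1, 13.1 and 15.9 CPM in the controls, without overlap.

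Transcription factors that B cells share with other leukocytes numbered 12, of which 6 rose, 2 fell and 4 did not pass; the median of their log2 fold changes was 0.67. Spi1, the factor PU.1 of macrophages and B cells, rose, with a log2 fold change of 2.98 (SE 0.22) and an edgeR adjusted p of 2.62e-05. Foxo1, needed for early B cells but made in most tissues, averaged 50.4 ± 1.81 CPM in the grafts and 107 ± 13.8 CPM in the controls, and fell by 1.08 in log2 units (SE 0.12) at an edgeR adjusted p of 0.000128. The second fall was that of Bach2, the factor that holds back the plasma cell programme, which averaged 7.89 ± 2.14 CPM in the grafts and 13.6 ± 1.98 CPM in the controls (edgeR adjusted p = 0.0167), with graft 3 above control 4. The falls numbered 1 without graft 2, without graft 4, or with library totals alone.

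Signals that attract B cells or keep them alive numbered 17, and of 12 tested 7 rose and 5 did not pass; the median of their log2 fold changes was 0.98. Cxcl12, the chemokine that holds plasma cells in bone marrow niches, averaged 966 ± 72.1 CPM in the grafts and 331 ± 22.2 CPM in the controls (SD, n = 4 each), which gives 1.55 in log2 units (SE 0.12) at an edgeR adjusted p of 3.41e-05. Tnfsf13, the plasma cell survival factor APRIL, averaged 36.2 ± 7.23 CPM in the grafts and 13.3 ± 2.60 CPM in the controls, which gives 1.45 in log2 units (SE 0.20) at an edgeR adjusted p of 0.000498. Tnfsf13b, the B cell survival factor BAFF, stood at 4.61, 4.36, 9.36 and 8.41 CPM in the grafts, against 3.07, 5.68, 5.69 and 3.17 CPM in the controls, and did not pass. Cxcl13, which draws B cells into follicles, stood at 67.7, 155, 94.8 and 81.7 CPM in the grafts, against 20.5, 54.4, 49.8 and 37.0 CPM in the controls, and passed the test (edgeR adjusted p = 0.0115). With controls 3 and 4 left out, 4 of 14 tested genes of this list rose.

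T cell transcripts rose in the grafts. All 13 tested of 15 T cell markers rose, and they summed to 85.9, 133, 198 and 114 CPM in grafts 1 to 4, with graft 3 highest, against 11.4 to 35.9 CPM in the controls. Icos, a T cell costimulator that supports B cell help, rose, with a log2 fold change of 3.00 (SE 0.28) and an edgeR adjusted p of 5.48e-05, while Cd2, an adhesion receptor of T and NK cells, stood at 3.96 (SE 0.39) with an edgeR adjusted p of 7.02e-05.

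**Figure D4:**
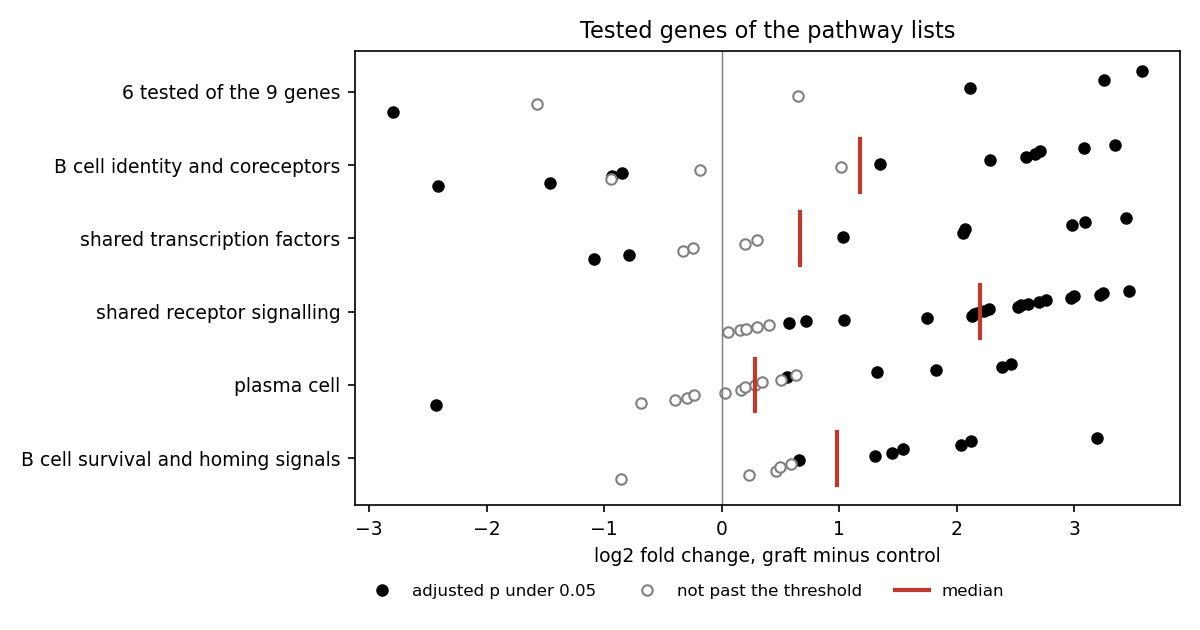
Log2 fold change, graft minus control, of each tested gene in the 5 pathway lists and of the 6 tested members, with filled circles for an adjusted p under 0.05 and red bars for list medians. The shared receptor signalling genes lie right of 0 with a median of 2.20, while the plasma cell list centres on 0.29 and the members spread to both sides.

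Likeness of profile was measured as the root mean square difference between log2 CPM profiles over the 8 libraries, each centred on its own mean, among 12783 tested genes with an established symbol. Nearest to Ms4a1 was Bank1, a scaffold of B cell receptor signalling, at a difference of 0.68, followed by Rsad2 at 0.71 and Cyp26c1 at 0.74. Nearest to Blnk were Susd3 at 0.30, Sash3, an adaptor of lymphocytes, at 0.32, and Naip6 at 0.33. Nearest to Btk were Prdm1 at 0.21, the chemokine Ccl6 at 0.21 and Klra1 at 0.22. Cr2 was nearest to Cdh7 at 0.73, Cacng7 at 0.76 and Rassf10 at 0.77. Jchain was nearest to Klrd1, a receptor chain of NK cells, at 0.58, followed by Tnnt1 at 0.58 and Gyltl1b at 0.62. Pou2af1 was nearest to Zc3h12b at 0.46, Map3k7 at 0.46 and Sectm1a at 0.47. Naip6 and Klra1 belong to families of similar copies, so their counts are uncertain.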

How the data were processed

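Total RNA of 4 graft veins and 4 control veins was sequenced on an Illumina instrument, per the labels. HISAT2 2.0.4 and Rnor_6.0 are named in the submitters' processing notes. How reads were assigned to genes (tool, gene models, strand) is not given in the sources used here. As to units, the authors deposited raw counts, 1 whole number for each gene and library. Genes were looked up by symbol, by an older symbol, or by gene ID in RefSeq's GRCr8 table: of 197 listed genes, 189 matched by symbol, 5 by older symbol, 2 by gene ID and 1 not at all.

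The test used edgeR 4.0.16 in R 4.3.3 with filterByExpr (minimum count 10), TMM scaling, glmQLFit and glmQLFTest on all 8 libraries, and Benjamini-Hochberg adjustment over all genes tested. Each SE was obtained by dividing the absolute log2 fold change by the root of F. Counting error follows from the depths given in the report. All replicate pairs differed by more than this sampling noise. Alternatives were other scalings, DESeq2 1.42.0, other filters, a replicate block, each library left out, and controls 3 and 4 left out. The procedure was tested on simulated counts.

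Named genes are the members, the genes with the smallest p in each pathway list (1 in each direction where both passed) and in the macrophage and T cell lists, Pax5, the 4 immunoglobulin rows with the highest mean CPM, and the nearest profiles; 1 further gene of the rule is not reported here. Fcmr, Bach2, Prdm1, Xbp1, Irf4, Tnfrsf17, Tnfsf13b, Cxcl13, Siglech and Tcf4 were named after their values were seen. Members and lists were chosen with earlier results of these data known, and no list was tested as a set.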

Additional observations from a re-analysis of the deposited data

Results flagged for a closer look

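In 60 groups of 4 libraries, 6 had a library far from the other 3 by Dixon's criterion. The groups of Cd79a, at 0 throughout, are among the 60 but could not be tested. Chance gives about 1 in 20 for normally distributed values, which low counts are not. LOC100360968 in control 1 and LOC103692723 in control 2 met the criterion because the other controls were at 0, where any count meets it. Pax5 stood at 1.04 CPM in graft 3, against 0.364 to 0.385 CPM in the other grafts. LOC100360968, a kappa V segment row, stood at 14.7 CPM in graft 3, against 2.63 to 3.46 CPM in the other grafts, and at 0.0749 CPM (1 count) in control 1, against 0 in the other controls. LOC103692723, a heavy chain C region row, stood at 0.199 CPM (2 counts) in control 2, against 0 in the other controls. Tent5c stood at 231.5 CPM in control 1, against 79.5 to 105 CPM in the other controls, and Tnfsf13 at 9.44 CPM in control 1, against 14.3 to 14.9 CPM in the other controls.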

How the results depend on the processing

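Of the 9 members 3 rose and 1 fell, and 4 rose where Mzb1 also passed. Blnk, Btk and Jchain passed in all 15 alternatives, with log2 fold changes of 3.11 to 3.90, 1.96 to 2.47 and 2.90 to 3.58. Cr2 passed in all 14 in which it could be fitted (-3.52 to -2.12). Members that fell numbered 0 with a minimum count of 30, where Cr2 was not tested, and 3 without controls 3 and 4. Leaving out 1 library gave 3 to 4 rises and 1 fall. Immunoglobulin rows that rose numbered 5, of 5 tested. Of these, 3 passed the filter through the grafts, so the number is no result on the rows as a whole. With no low-count filter 17 of 102 rose, where 14.1% of all genes did. They numbered 3 with a minimum count of 30 (3 tested), 3 with the replicate block (5 tested) and 3 without controls 3 and 4 (22 tested). Leaving out 1 library gave 4 to 8, with 8 without graft 2 or control 2. These counts of immunoglobulin rows, and the ratios with 1 library left out, were chosen after seeing the data. With the replicate block 3 members rose and 1 fell, and Igha (adjusted p = 0.0592) and LOC314492 (0.0621) lost their calls by edgeR. Same-numbered libraries correlated in their deviations by -0.07 to 0.18, and 1 of 4 grafts was most like the control of its number, so the numbers were not taken to pair the animals. With library totals alone the median over all genes lay at 0.23 in log2 units, against 0.01 with TMM, and no member changed direction. Cd79b, Ms4a1 and Mzb1 rest on at most 107 counts in either group.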
